A study of Mus musculus with 7 samples.

Results

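The inducible acute phase proteins of the liver were followed here through 10 genes, namely Saa1, Saa2, Saa3, Orm1, Orm2, Lcn2, Hp, Crp, Apcs and Lbp, taken by name from the 23366 genes of each table. All 10 were found and all 10 passed the filter on low counts, among 11251 genes that did. The samples are whole livers of C57BL/6 mice, an inbred laboratory strain, 3 at 21 months of age and 4 at 3 months, profiled by strand-specific sequencing of mRNA. The study compared old with young livers, and its labels name no treatment, allele, sex, feeding state or time of sampling. Nothing in the labels states that each liver is a different animal; the p-values therefore describe variation among these libraries, part of which could be technical. Libraries held between 4724687 and 11143125 expected counts, of which 18.7 to 25.6% fell on the ribosomal RNA entry Rn45s. Alb, the hepatocyte's main secreted protein, stood between 50175 and 53670 CPM (counts scaled to library size) at 21 months and between 28742 and 43276 CPM at 3 months. The other 7 hepatocyte markers, summed without Alb after its values were seen, overlapped between the ages (19432 to 20953 CPM at 21 months, against 20863 to 21900 CPM at 3 months).

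The acute phase response is the change in plasma proteins that the liver makes during infection or injury. Cytokines of the interleukin-6 type act through the shared receptor subunit gp130 (Il6st) and STAT3, interleukin-1 and tumour necrosis factor act through NF-kappa B, and both routes work together with the C/EBP factors on the genes of serum amyloid A, the orosomucoids and haptoglobin in hepatocytes. Which members respond differs between species: in mice the serum amyloid A proteins and serum amyloid P (Apcs) are the classical large responders, whereas Crp, the main clinical marker in humans, is known to respond weakly.

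The promoter windows of Saa1, Saa2, Saa3, Lcn2 and Crp are shown because Saa1, Saa2 and Lcn2 differed most between libraries, Saa3 belongs to the same family but did not follow them, and Crp was the member that differed with age. Each is the 250 bases before the gene's start in RefSeq on build GRCm38.p6, written 5′ to 3′ on the gene's own strand, with capitals marking the letters TTGCNNAA (a C/EBP type site) or the letters of a kappa B type site, read on either strand. The windows lie at chr7:46742981-46743230 on the minus strand for Saa1, chr7:46751583-46751832 on the plus strand for Saa2, chr7:46715677-46715926 on the minus strand for Saa3, chr2:32387740-32387989 on the minus strand for Lcn2 and chr1:172697806-172698055 on the plus strand for Crp.
Saa1: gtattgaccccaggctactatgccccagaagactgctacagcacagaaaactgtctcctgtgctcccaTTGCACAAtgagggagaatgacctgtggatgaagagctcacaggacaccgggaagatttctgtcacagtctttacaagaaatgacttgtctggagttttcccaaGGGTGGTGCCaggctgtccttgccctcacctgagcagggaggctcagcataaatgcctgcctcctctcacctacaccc
Saa2: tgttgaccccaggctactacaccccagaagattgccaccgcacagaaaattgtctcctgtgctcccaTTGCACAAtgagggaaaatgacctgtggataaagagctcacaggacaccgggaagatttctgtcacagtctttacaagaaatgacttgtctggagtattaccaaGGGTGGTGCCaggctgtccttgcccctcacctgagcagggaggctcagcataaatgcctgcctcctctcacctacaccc
Saa3: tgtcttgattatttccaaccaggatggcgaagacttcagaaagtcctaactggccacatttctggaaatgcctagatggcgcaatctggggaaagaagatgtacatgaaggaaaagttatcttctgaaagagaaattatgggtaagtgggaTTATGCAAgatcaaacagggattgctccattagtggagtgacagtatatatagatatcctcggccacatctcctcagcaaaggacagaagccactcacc
Lcn2: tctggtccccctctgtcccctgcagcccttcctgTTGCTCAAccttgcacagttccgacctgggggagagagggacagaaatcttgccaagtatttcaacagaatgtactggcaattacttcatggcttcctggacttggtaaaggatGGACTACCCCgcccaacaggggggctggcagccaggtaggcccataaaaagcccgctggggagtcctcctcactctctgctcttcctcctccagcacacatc
Crp: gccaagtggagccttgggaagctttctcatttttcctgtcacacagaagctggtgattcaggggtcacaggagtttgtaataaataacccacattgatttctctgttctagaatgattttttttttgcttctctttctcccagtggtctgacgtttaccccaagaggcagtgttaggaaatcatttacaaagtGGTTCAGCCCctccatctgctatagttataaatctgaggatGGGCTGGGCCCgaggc
The Saa1 and Saa2 windows had the same base in 94.8% of aligned columns, against 52.2% for Saa1 and Saa3. TTGCNNAA, whose reverse complement is TTNNGCAA, was found in 5 of the 7 members with a window in the table (Saa1, Saa2, Saa3, Orm2 and Lcn2) and in 9.56% of all 32851 windows of that length. The kappa B letters were found in Saa1, Saa2, Lcn2 and Crp, 4 of 7, against 45.8% of all windows. The STAT letters TTCNNNGAA (7.02% of all windows) and the type 2 acute phase element CTGGGAA (9.10%) were each found in 1 of 7, both in Apcs. In the order of genes on the chromosome, Saa3, Saa4, Saa1 and Saa2 follow each other, as do Orm1, Orm3 and Orm2, and Crp lies beside Apcs. A match of letters is a description of the window and not a site of binding.

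Crp was the only member called at the threshold of 0.05, higher in the 21-month livers, and Saa1 and Saa2 were high in a single 3-month library. Over all genes tested, 11.3% were called, 5.47% higher and 5.86% lower at 21 months. Of all calls 48.3% were higher at 21 months, against 74.9% on the log2(TPM + 1) scale, on which the median log2 fold change of all genes was 0.10; Crp was called on both. Among the members, 1 of 10 was called higher and 0 were called lower by edgeR (quasi-likelihood test, Benjamini-Hochberg adjusted over all genes). The same 1 member was the only one with an unadjusted p under 0.05, and 0 members were called lower under any of 19 alternative analyses, DESeq2 and limma among them. The log2 fold changes of the members, 21 months over 3 months, were positive for 6 and negative for 4, with a median of 0.12 beside a median of -0.00 over all genes. A fit with the replicate number as a block, on replicates 1 to 3 of each age and so without 3-month replicate 4, called 2 members higher, Lcn2 and Crp.

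Per unit of length, measured in TPM (transcript abundance scaled to the library), the order of the members at 21 months was Hp (3360 ± 88.2), Orm1 (846 ± 196), Crp (315 ± 31.6), Apcs (61.5 ± 28.3), Saa1 (58.5 ± 5.80), Lbp (56.9 ± 5.78), Saa2 (24.8 ± 1.06), Orm2 (20.4 ± 13.3), Saa3 (12.8 ± 3.85) and Lcn2 (10.9 ± 3.92; SD, n = 3). At 3 months the means were 3524 ± 545 TPM for Hp, 1001 ± 224 for Orm1, 384 ± 625 for Saa1, 197 ± 20.5 for Crp, 154 ± 242 for Saa2, 45.6 ± 6.80 for Apcs, 44.9 ± 3.59 for Lbp, 17.6 ± 6.38 for Orm2, 11.6 ± 4.41 for Saa3 and 5.25 ± 6.28 for Lcn2 (SD, n = 4). Apcs, Saa1 and Lbp lay within their SDs of each other at 21 months, as did Saa2 and Orm2, and Saa3 and Lcn2. Together the 10 genes made up 0.493, 0.448 and 0.489% of all TPM at 21 months and 0.470, 0.446, 0.455 and 0.784% at 3 months, where replicate 4 is the last value.

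**Figure D1:**
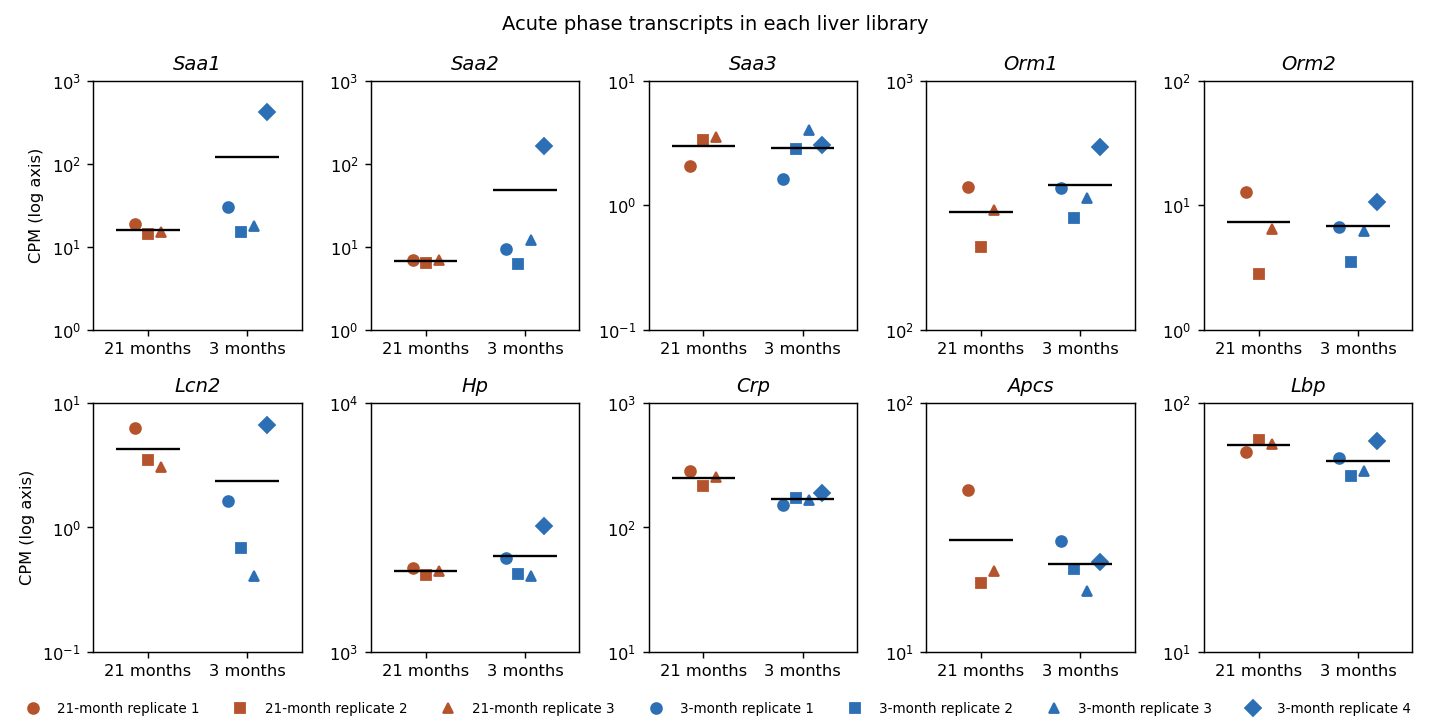
Level of each of the 10 members in each liver library, in CPM on a log axis, with 21-month libraries left of 3-month libraries, each point 1 library and each bar the mean of an age. Crp is the member whose ages do not overlap (215 to 285 CPM at 21 months, 153 to 189 CPM at 3 months), and Saa1 and Saa2 have 1 point far above the rest, 3-month replicate 4 at 421 and 166 CPM.

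The pentraxins are the ring-shaped proteins Crp and Apcs, which bind exposed phosphocholine and other ligands on microbes and damaged cells. Crp was measured at 285, 215 and 253 CPM in 21-month replicates 1, 2 and 3, against 153, 174, 167 and 189 CPM in 3-month replicates 1, 2, 3 and 4. Every 21-month library was above every 3-month library, as was so for no other member, while the ages did not overlap, in 1 direction or the other, for 24.2% of all genes tested. The means were 251 ± 35.3 CPM at 21 months and 171 ± 14.8 CPM at 3 months (SD, n = 3 and 4), a 1.47-fold difference with a 95% interval of 1.25 to 1.73 (log2 fold change 0.56 ± 0.11 SE, adjusted p = 0.00512, edgeR). Crp was called in 19 of 19 alternative analyses, with log2 fold changes of 0.46 to 0.68 and adjusted p between 0.000278 and 0.0493. The highest of these p-values came from the fit with fragment length as a covariate.

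Apcs, whose gene lies next to Crp, stood at 44.8, 18.9 and 21.0 CPM in the 21-month livers, against 27.9, 21.6, 17.6 and 22.9 CPM in the 3-month livers. The 21-month replicate 1 was the highest library and the remaining values of both ages overlapped. The log2 fold change was 0.34 ± 0.33 with a 95% interval of -0.45 to 1.14 (adjusted p = 0.577), and without 21-month replicate 1 it was -0.17.

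Serum amyloid A proteins are apolipoproteins carried on high-density lipoprotein in inflammation. Saa1 stood at 18.6, 14.4 and 14.98 CPM in the 21-month livers, against 30.1, 15.1, 17.6 and 421 CPM in the 3-month livers. Saa2, its near-identical neighbour, stood at 6.996, 6.28 and 7.02 CPM in the 21-month livers, against 9.49, 6.26, 12.1 and 166 CPM in the 3-month livers. In both genes 3-month replicate 4 was far above the other 6 libraries, which lay within 14.4 to 30.1 CPM for Saa1 and 6.26 to 12.1 CPM for Saa2.

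Neither gene differed between the ages beyond the spread of the libraries. The log2 fold change of Saa1 was -2.91 ± 1.58, with a 95% interval of -6.93 to 1.11 (adjusted p = 0.325), and without 3-month replicate 4 it was -0.36 ± 0.24 (adjusted p = 0.437). That of Saa2 was -2.82 ± 1.56 (adjusted p = 0.331), and without that library -0.40 ± 0.23 (adjusted p = 0.337). DESeq2 gave no adjusted p for either gene. The split of reads between near-identical copies makes single values of Saa1 and Saa2 uncertain. Their TPM ratio, Saa1 over Saa2, was 2.66, 2.27 and 2.15 in the 21-month livers, against 3.18, 2.41, 1.44 and 2.56 in the 3-month livers, and the high library stood within that range.

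Saa3, which macrophages and fat cells are known to make as well as hepatocytes, did not share the high library. It stood at 2.07, 3.35 and 3.57 CPM in the 21-month livers, against 1.64, 2.83, 4.05 and 3.08 CPM in the 3-month livers. The ages overlapped, and the log2 fold change was 0.04 ± 0.32 (adjusted p = 0.960).

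**Figure D2:**
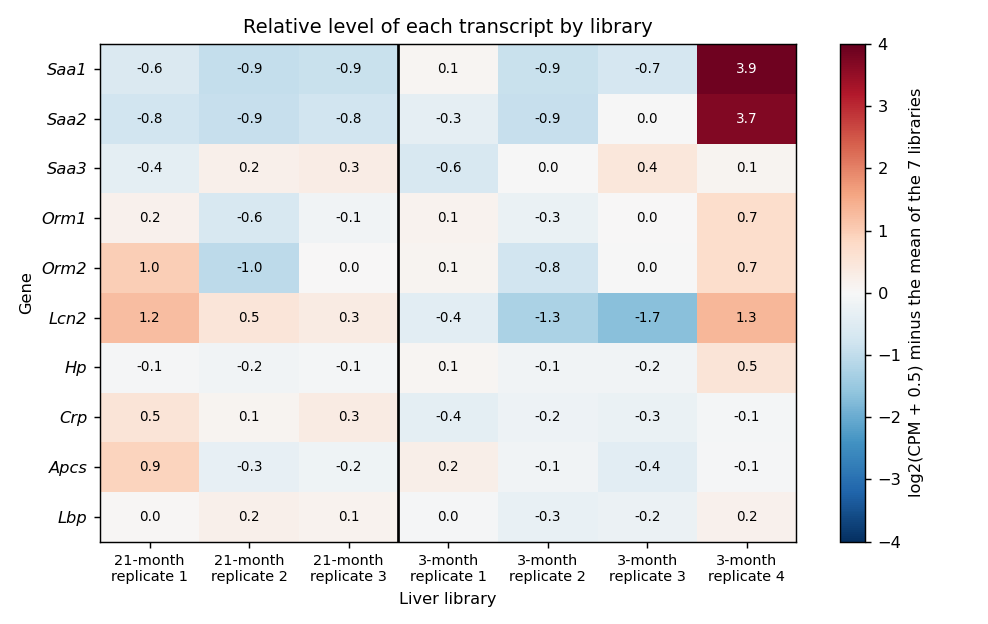
Each member in each library as log2(CPM + 0.5) minus its mean over the 7 libraries, with members down the page and libraries across it, the 21-month libraries on the left. In 3-month replicate 4, Saa1 and Saa2 are the strongest colours, and Lcn2, Orm1 and Hp are also at their highest there.

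Orosomucoids, or alpha-1-acid glycoproteins, are plasma carriers of lipids and drugs. Orm1 stood at 375, 214 and 303 CPM in the 21-month livers, against 370, 280, 339 and 541 CPM in the 3-month livers. The ages overlapped, with 21-month replicate 2 lowest and 3-month replicate 4 highest, and the log2 fold change was -0.36 ± 0.27 (adjusted p = 0.462). Orm2 stood at 12.8, 2.79 and 6.42 CPM in the 21-month livers, against 6.75, 3.52, 6.27 and 10.5 CPM in the 3-month livers. Replicate 1 was highest and replicate 2 lowest of the 21-month libraries in both genes, and the log2 fold change of Orm2 was 0.21 ± 0.57 (adjusted p = 0.869). The TPM ratio of Orm1 to Orm2 was 29.6, 78.8 and 47.5 in the 21-month livers and 54.7, 79.6, 54.1 and 51.5 in the 3-month livers, and Orm3 is a further close copy, so the levels of the single genes are uncertain.

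Lcn2, a lipocalin that binds bacterial iron carriers, differed by age only where 3-month replicate 4 was left out. It stood at 6.31, 3.49 and 3.09 CPM in the 21-month livers (64, 25 and 26 counts), against 1.64, 0.686, 0.405 and 6.65 CPM in the 3-month livers (9, 8, 2 and 41 counts). In 3-month replicates 1 to 3 it was below every 21-month library, and in 3-month replicate 4 it was above every 21-month library. The lowest value, 2 counts in 3-month replicate 3, lies under the 0.607 CPM that 3 counts stand for in that library. With all 7 libraries the log2 fold change was 0.95 ± 0.83, with a 95% interval of -1.06 to 2.96 (adjusted p = 0.536). Without 3-month replicate 4 it was 2.30 ± 0.46 (adjusted p = 0.0124), and with the replicate block, which also leaves that library out, 2.24 ± 0.35 (adjusted p = 0.00192). Neutrophils also store this protein, and the sum of 10 neutrophil markers was 7.59 to 12.8 CPM at 21 months and 4.01 to 8.29 CPM at 3 months; their part in the Lcn2 values was not tested.

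Haptoglobin, encoded by Hp, binds free haemoglobin, and Lbp carries bacterial lipopolysaccharide to CD14. Hp stood at 2164, 2030 and 2119 CPM in the 21-month livers, against 2394, 2064, 2026 and 3199 CPM in the 3-month livers. The 21-month libraries lay inside the 3-month range, which 3-month replicate 4 widened, and the log2 fold change was -0.20 ± 0.14 (adjusted p = 0.409). Without that library it was -0.04 ± 0.10 (adjusted p = 0.871). Lbp stood at 63.6, 70.9 and 68.7 CPM in the 21-month livers, against 60.4, 50.7, 53.2 and 70.6 CPM in the 3-month livers. All 21-month libraries were above 3-month replicates 1 to 3, and 3-month replicate 4 lay among them; the log2 fold change was 0.21 ± 0.12 with a 95% interval of -0.04 to 0.46 (adjusted p = 0.280).

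**Figure D3:**
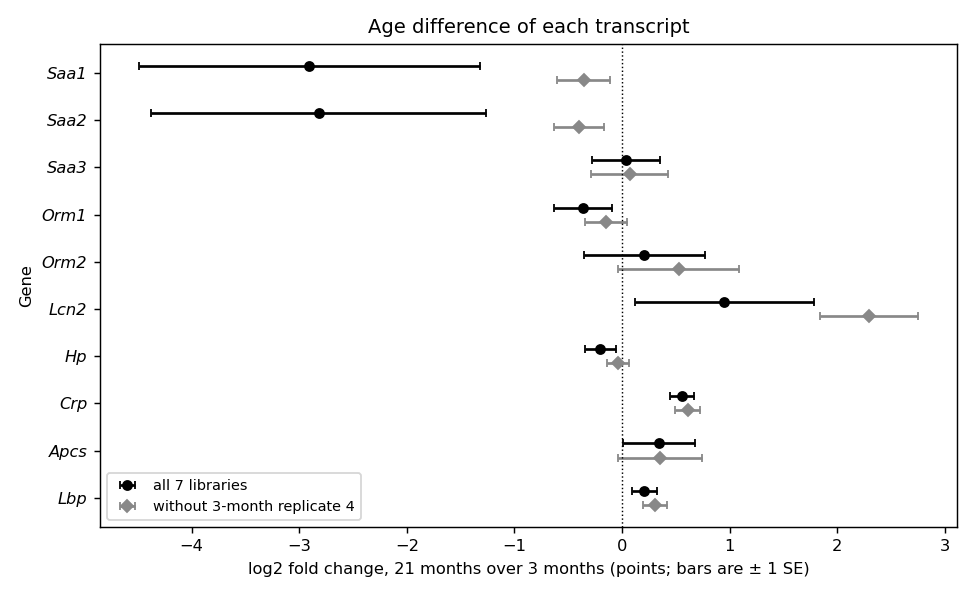
Log2 fold change of each member, 21 months over 3 months, from all 7 libraries (black) and from the 6 without 3-month replicate 4 (grey), with bars of 1 SE. Crp keeps its place (0.56 and 0.61), while Saa1 moves to -0.36 and Lcn2 to 2.30 when that library is left out.

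Libraries of 1 age differed from each other far more in some members than in others. The pooled SD within ages on the log2 scale was 1.72 for Saa1, 1.63 for Saa2, 1.07 for Lcn2, 0.79 for Orm2, 0.47 for Apcs, 0.42 for Saa3, 0.40 for Orm1, 0.24 for Hp, 0.17 for Lbp and 0.16 for Crp, beside a median of 0.20 over all genes tested. Saa1 stood at the 99.9th percentile of all genes tested, Saa2 at the 99.9th, Lcn2 at the 99.7th and Orm2 at the 99.3rd, while Lbp stood at the 40.7th and Crp at the 36.4th. Among the 500 genes nearest in level, Apcs stood at the 99.8th percentile, Orm1 at the 96.4th, Hp at the 83.2nd, Saa3 at the 74.2nd, Lbp at the 69.4th and Crp at the 66.6th, so that Lbp and Crp varied more than the middle of genes of their level. Crp, the member that differed with age, had the smallest spread within ages of the 10.

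The 3-month replicate 4 was the highest of the 7 libraries for 5 of 10 members (Saa1, Saa2, Orm1, Lcn2 and Hp), for 15 of 26 other genes known as positive acute phase genes, and for 1699 of 8761 genes with a mean of at least 5 CPM (19.4%). Its level over the median of the other 6 libraries was 25.8 for Saa1, 23.6 for Saa2, 2.81 for Lcn2, 1.69 for Orm1, 1.66 for Orm2 and 1.53 for Hp, and 0.97 for Crp. A ratio of 1.5 or more, a threshold chosen after the values were seen, was reached by 6 of 10 members, 6 of the 26 other positive genes and 210 of the 8761 genes (2.40%). Those 6 other genes, also picked by their values, were Mt1 (4.33), Mt2 (2.74), Fgl1 (2.52), Orm3 (2.21), C9 (2.06) and Lrg1 (1.52). The limit of 5 CPM was set for the 8761 genes only, so their shares are not a like background. Lcn2, Mt2 and Orm3 had means under 5 CPM at both ages, and Orm3 was at 0.172 to 0.365 CPM in 3-month replicates 1 to 3. The 21-month replicate 1 was in turn the highest library for Orm2, Crp and Apcs.

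Cell markers were set beside these values, since in whole tissue a change in the number of cells of a type and a change in RNA per cell cannot be told apart. In 3-month replicate 4 the sum of 12 macrophage markers was 333 CPM, the lowest of the 3-month livers (207 to 603 CPM at 21 months, against 333 to 517 CPM at 3 months). All 8 hepatocyte markers summed to 70814 to 74623 CPM at 21 months and 50642 to 64496 CPM at 3 months, lowest in 3-month replicate 4, but Alb carried that order, and the 7 others had their highest sum in that library (21900 CPM). The sum of 8 fat cell markers was 32.8 to 39.7 CPM at 21 months and 10.2 to 24.5 CPM at 3 months, where replicate 4 had the lowest value. Cidec (19.5 ± 5.09 CPM at 21 months and 1.73 ± 1.40 CPM at 3 months) and Pparg carried that gap, and the 6 other markers, summed after the values were seen, overlapped (5.83 to 8.77 CPM at 21 months and 4.22 to 14.4 CPM at 3 months). B and plasma cell markers summed to 8.47 to 39.4 CPM at 21 months and 2.92 to 3.64 CPM at 3 months. Igj alone gave 4.93, 23.5 and 3.81 CPM of the sums in 21-month replicates 1, 2 and 3. T and NK cell markers summed to 3.25 to 7.40 CPM at 21 months and 2.63 to 4.20 CPM at 3 months. Cd3e, Cd3g, Cd8a and Nkg7 were each higher at 21 months without overlap, but none of them passed the filter on low counts. Cd4, which passed, went the other way (1.25 ± 1.34 CPM at 21 months and 2.22 ± 0.94 CPM at 3 months), as did Klrb1c. Of the tabled markers, 0 were at 0 in every library, and Ly6g was not in the tables. The part of these cells in the member values was not tested.

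To compare the members across libraries, the deviation of each library from the mean of its own age was taken on the log2 scale for all 45 pairs. Of these pairs, 35 had r above 0 and 12 had r above 0.8. The exact permutation test within ages, in which the smallest possible p is 0.00694, gave an unadjusted p under 0.05 for 10 pairs by Pearson's r and 10 by Spearman's rho. After Benjamini-Hochberg adjustment over the 45 pairs 0 passed 0.05, with smallest adjusted p-values of 0.156 for r and 0.179 for rho. All pairs share the same 7 libraries and so are not independent of each other.

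Orm1 and Orm2 followed each other with r = 0.95 (rho = 0.93, exact permutation p = 0.0139, adjusted p = 0.156, n = 7). The relation did not rest on the libraries outermost for Orm1, since r was 0.98 without the 2 libraries farthest from the median of Orm1 and 0.99 without 3-month replicate 4. Both checks kept 21-month replicate 1, the highest library for Orm2, so they do not show what r would be without it. Saa1 and Saa2 had r = 0.98 (rho = 0.93, exact permutation p = 0.0972, adjusted p = 0.260, n = 7). That relation rested on the outermost libraries, since r was 0.57 without the 2 farthest from the median of Saa1 and 0.36 without 3-month replicate 4. For Orm1 and Orm2, as for Saa1 and Saa2, the split of reads between close copies is uncertain. Leaving out libraries cannot address this, and the part of that split in r was not tested. Saa1 and Hp had r = 0.98 (rho = 0.93, exact permutation p = 0.0208, adjusted p = 0.156, n = 7), with 0.58 without the 2 farthest libraries and 0.94 without 3-month replicate 4. Lcn2 and Hp had r = 0.97 (rho = 0.89, exact permutation p = 0.0139, adjusted p = 0.156, n = 7). Without the 2 libraries farthest from the median of Lcn2, 3-month replicates 3 and 2, r was 0.92. That check kept 3-month replicate 4, the highest library for both genes, without which r was 0.86. With all 7 libraries the lowest r was that of Saa3 and Apcs, r = -0.83 (rho = -0.82, exact permutation p = 0.0278, adjusted p = 0.156, n = 7), and r was -0.77 without the 2 farthest libraries. Without 3-month replicate 4 other pairs also had low values, with r of -0.99 for Saa3 and Lcn2, -0.87 for Saa3 and Hp, -0.82 for Saa1 and Saa3 and -0.81 for Crp and Lbp, against -0.33, -0.18, -0.01 and -0.01 for these pairs over all 7 libraries. Hp and Lbp had r = 0.89 (rho = 0.61, exact permutation p = 0.0833, adjusted p = 0.260, n = 7), and r was -0.91 without the 2 farthest libraries.

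**Figure D4:**
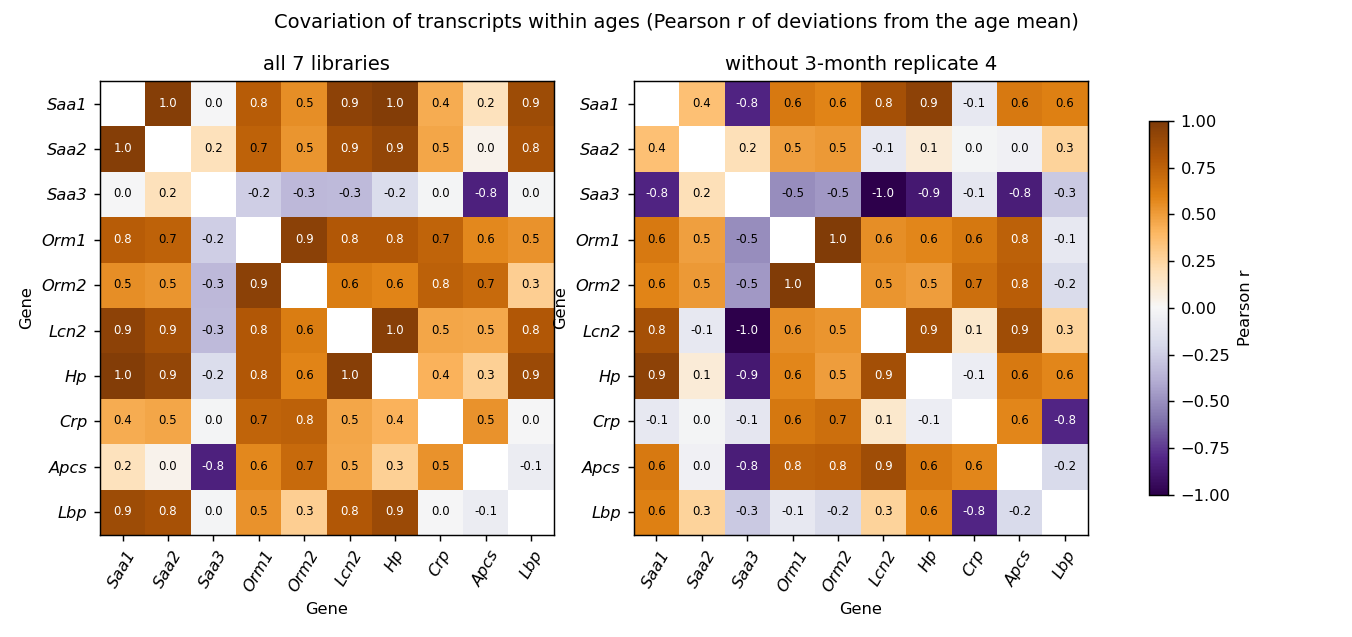
Pearson's r between members, over deviations from the age means, for all 45 pairs, with all 7 libraries on the left and without 3-month replicate 4 on the right. On the left Saa1, Saa2, Lcn2, Hp and Lbp have high values with each other (Saa1 and Hp 0.98, Lcn2 and Lbp 0.80), as Orm1 has with Orm2 (0.95), and 0 pairs passed the adjusted test. On the right Saa1 and Saa2 are at 0.36, and Saa3 and Lcn2, both at low counts, are at -0.99.

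Over the 7 libraries without removal of the age means, the levels of the other members had r with the sum of Saa1 and Saa2 of 0.97 for Hp, 0.82 for Orm1, 0.50 for Orm2, 0.45 for Lcn2, 0.37 for Lbp, 0.01 for Saa3, -0.01 for Apcs and -0.22 for Crp. Without 3-month replicate 4 r was 0.77 for Hp, 0.73 for Orm1 and 0.45 for Orm2, but -0.25 for Lcn2, -0.24 for Lbp, -0.57 for Saa3 and -0.54 for Crp, and 0.25 for Apcs. The 8 genes outside the members most like that sum, among 8753 with a mean of at least 5 CPM, were Taf3 (0.97), Apex2, Ict1, Usp39 and Ppil2 (each 0.96), and Sdf4, Rnf126 and Csnk2a2 (each 0.95). Without 3-month replicate 4 their r ran from -0.12 for Taf3 to 0.85 for Ict1, so the likeness of several rested on that library. These r values are a description over libraries that share the same high value, and no p is given.

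Other positive acute phase genes went in both directions. Of 29 listed genes, 26 were tested, and 2 (7.69%) were higher and 5 (19.2%) lower at 21 months. Over all genes tested, 5.47% were higher and 5.86% lower. The median log2 fold change was -0.09 beside -0.00 over all genes. The higher ones were Serpina3m, a protease inhibitor (207 ± 40.6 CPM at 21 months and 124 ± 19.0 CPM at 3 months, log2 fold change 0.74 ± 0.14, adjusted p = 0.00685), and Steap4, a metalloreductase (0.40 ± 0.09, adjusted p = 0.0132). The clearest among the lower ones was C9, the last component of the complement pore, with 203, 182 and 205 CPM in the 21-month livers, against 487, 348, 362 and 571 CPM in the 3-month livers (-1.17 ± 0.16, adjusted p = 0.00151). The fibrinogen chains Fga (-0.48, adjusted p = 0.00976) and Fgg (-0.40, adjusted p = 0.0196), complement factor Cfb (-0.36, adjusted p = 0.0270) and Serpina3k (-0.47, adjusted p = 0.0301, named after its value was seen) were also lower. C9 was called in all 19 alternatives, while Cfb lost its call without any 1 library (adjusted p of 0.0504 to 0.0718), Fga without 21-month replicate 3 (0.0504), Fgg without 3-month replicate 2 or 21-month replicates 2 or 3 (0.0598 to 0.108) and Steap4 without 21-month replicate 3 (0.0555). Serpina3k was no longer called without 3-month replicates 1 or 4 or 21-month replicates 2 or 3, or with fragment length as a covariate. With that covariate Fga, Fgg, Cfb and Steap4 were not called either. Fga, Fgg and Cfb were also not called on the log2(TPM + 1) scale, nor Cfb with library-size scaling. Over the 19 alternatives the highest adjusted p was 0.0703 for Fga, 0.187 for Fgg, 0.177 for Cfb and 0.162 for Steap4. With the replicate block 5 positive genes were higher (Orm3, Serpina3n, Hpx, Hamp and Steap4), and Serpina3m missed the threshold (adjusted p = 0.0501); without 3-month replicate 4 the genes called higher were Orm3, Serpina3m, Hpx and Steap4, 4 in all. Without 21-month replicate 3 there was 1 higher and 1 lower gene, and on the log2(TPM + 1) scale 4 positive genes were higher and 2 lower.

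All 14 listed genes known to fall in the acute phase were tested, and 3 (21.4%) were higher and 1 (7.14%) lower at 21 months. Over all genes tested the shares were 5.47% and 5.86%. The median log2 fold change of the 14 was 0.09. The higher genes were Pon1, a paraoxonase of high-density lipoprotein (0.62 ± 0.12, adjusted p = 0.00465), Serpina6, the corticosteroid-binding globulin (0.83 ± 0.17, adjusted p = 0.0136), and Alb (0.52 ± 0.14, adjusted p = 0.0275). The lower gene was Apoa1, the main apolipoprotein of high-density lipoprotein (-0.54 ± 0.13, adjusted p = 0.0176). Pon1 was called in all 19 alternatives, whereas Serpina6 lost its call without 21-month replicate 1 (0.0632), Apoa1 without 3-month replicate 2 or 21-month replicate 3 (0.0538 and 0.0997) and on the log2(TPM + 1) scale (0.0533), and Alb without any 1 of 4 libraries, 3-month replicates 1, 3 and 4 and 21-month replicate 3 (0.0502 to 0.0998). With fragment length as a covariate Serpina6, Apoa1 and Alb all lost their calls (adjusted p of 0.0794, 0.128 and 0.142). Without 21-month replicate 1, 2 negative genes were called lower.

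Upstream of the members, the inducing cytokines were near the limit of detection and 2 receptors were lower at 21 months. Of 8 ligands only Il11, a cytokine of the interleukin-6 family, passed the filter (log2 fold change 1.31 ± 0.47, adjusted p = 0.0850, and 0.0347 without 3-month replicate 3), and Il6 had 1 count over all 7 libraries. Of 11 receptors 9 were tested, with 0 higher and 2 lower (22.2%), against 5.86% of all genes lower. Lifr, the receptor subunit for leukaemia inhibitory factor, stood at 129, 122 and 137 CPM in the 21-month livers, against 245, 208, 187 and 266 CPM in the 3-month livers, without overlap (-0.81 ± 0.12, edgeR adjusted p = 0.000911). The ages did not overlap for 24.2% of all genes tested. Il1r1, the interleukin-1 receptor, was at 14.9 ± 2.47 CPM at 21 months and 23.6 ± 5.58 CPM at 3 months (-0.67 ± 0.18, adjusted p = 0.0297), and lost its call with the replicate block (0.0718), on the log2(TPM + 1) scale (0.109) and without 3-month replicates 1 or 4 or 21-month replicates 1 or 3 (0.0622 to 0.0897). The fit with fragment length as a covariate did not call Il1r1 either.

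Inside the cell, 1 of 17 transducers was called (5.88%), against 11.3% of all genes tested. Cebpb, a C/EBP factor known to bind acute phase promoters, stood at 56.4, 64.7 and 53.5 CPM in the 21-month livers, against 34.1, 32.5, 34.8 and 40.6 CPM in the 3-month livers, without overlap (log2 fold change 0.71 ± 0.11, edgeR adjusted p = 0.00128), and was called in all 19 alternatives. Ages without overlap were found for 24.2% of all genes tested. Of 9 feedback inhibitors 6 were tested and 1 was higher (16.7%, against 5.47% of all genes). This was Nfkbiz, a nuclear I kappa B protein that also activates some targets, with 8.04 ± 1.41 CPM at 21 months and 4.29 ± 0.17 CPM at 3 months (0.91 ± 0.19, edgeR adjusted p = 0.00810). Without 21-month replicate 3 the adjusted p of Nfkbiz was 0.0502. Of 9 receptors and clearance partners of the members, among them the haptoglobin receptor Cd163, 6 were tested, 0 were called by edgeR or by DESeq2, and 0 had an unadjusted p under 0.05. The partners nearest the threshold, Lrp2, Cd163, Tlr2 and Scarb1, had adjusted p of 0.665 to 0.952.

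**Figure D5:**
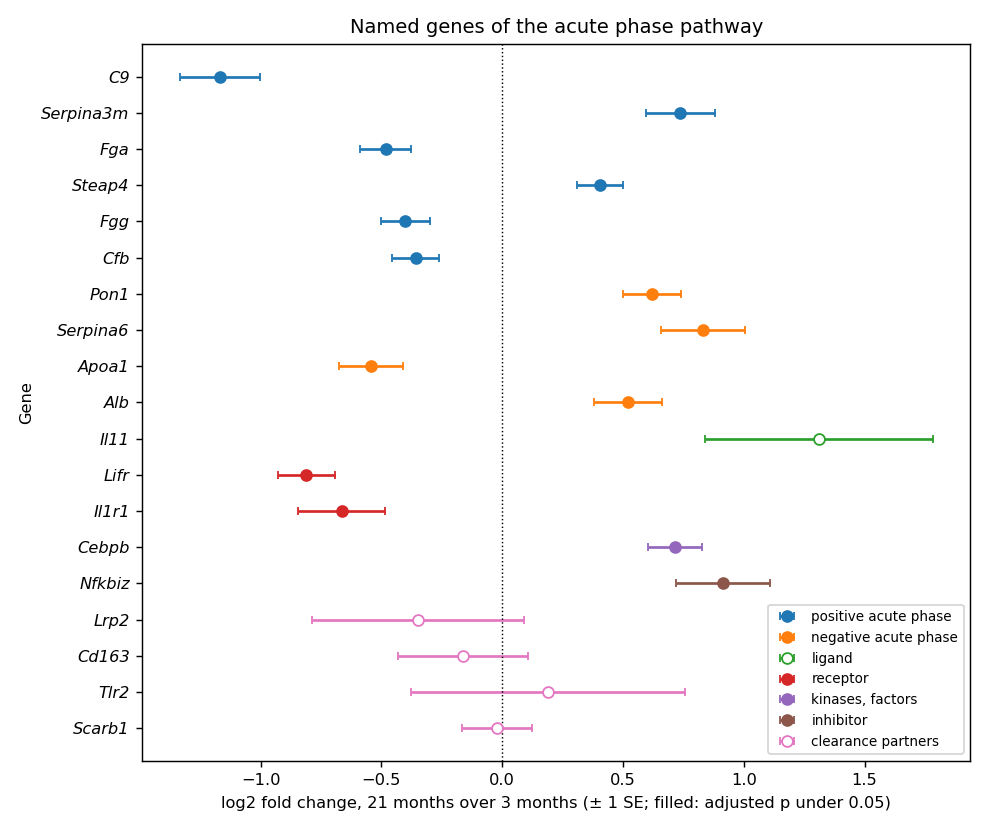
Log2 fold change, 21 months over 3 months, of the named genes of each list, 1 point a gene with a bar of 1 SE and a filled point where the gene was called, coloured by list. C9 and Lifr are the lowest called points (-1.17 and -0.81), and Cebpb is the 1 called transducer (0.71).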

How the data were processed

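RNA from 3 livers at 21 months and 4 at 3 months was sequenced after enrichment of mRNA and strand-specific library preparation by adapter ligation, with no molecular identifiers named, per the labels' protocols. TopHat, RSEM and edgeR are named with build mm9 in the submitters' processing notes, without versions or the step each was used for. The authors deposited, per gene and library, expected counts (RSEM estimates, 86.5% whole within 0.005), TPM and FPKM, and FPKM were not used. Expected counts were rounded. Genes were kept by filterByExpr (minimum count 10, minimum total 15), given TMM factors and compared by the robust quasi-likelihood test of edgeR, with Benjamini-Hochberg adjustment over 11251 genes and a threshold of 0.05. CPM use the scaled library size. Log2 fold changes are of 21 months over 3 months, with their SE. A count of 0 allows up to 3 counts, 0.257 to 0.607 CPM by library, counting error only. The shortfall of effective length below gene length, taken as a sign of fragment length, was 21.4 to 35.4 bases at 21 months and 34.4 to 38.8 bases at 3 months.

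The members and gene lists were chosen with earlier results of these data known. Named genes are all members, the called genes of each list up to 6 (otherwise the 4 smallest adjusted p) and the 8 genes most like Saa1 plus Saa2. The deviations of same-numbered libraries of both ages from their age means had correlations of 0.110, 0.176 and 0.108. Libraries with different numbers were not compared in this way, so these values cannot show whether the numbers pair the libraries. The replicate block is given where it changes a call. No 2 libraries agreed within sampling noise. Alternatives were RLE and library-size scaling, other filters, DESeq2, limma voom with and without sample weights, limma on log2(TPM + 1), removal of ribosomal RNA, summed Saa and Orm copies, fragment length as a covariate, the replicate block and leaving out each library. Tools were R 4.3.3, edgeR 4.0.16, limma 3.58.1, DESeq2 1.42.0, Python 3.11.15 and matplotlib 3.10.9, and the fit was tested on simulated data. Promoter sequences are from RefSeq on GRCm38.p6, matched by symbol for 7 of 10 members.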

Additional observations from a re-analysis of the deposited data

Results flagged for a closer look

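Saa1 at 421 CPM and Saa2 at 166 CPM in 3-month replicate 4 stood far from the other 3-month libraries, the nearest of which held 30.1 CPM of Saa1 and 12.1 CPM of Saa2. The gap was 0.963 of the whole range for both genes, above Dixon's critical value for 4 samples. Tlr2, a receptor for bacterial lipoproteins and serum amyloid A, stood at 2.75 CPM in 3-month replicate 2, with the nearest 3-month library at 1.09 CPM (gap 0.852 of the range). These were 3 of 35 items examined in the 3-month group, where chance sets apart about 1 in 20. The items were the members, the named genes of the lists and the summed cell markers. Saa1 and Saa2 are near-identical copies whose values are not independent.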

How the results depend on the processing

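The call of Crp and its direction held in all 19 alternatives. Members called higher numbered 2 with the replicate block, and 1 to 2 when each library was left out. Positive acute phase genes called higher numbered 5 with sample weights, 4 on the log2(TPM + 1) scale, 1 with fragment length as a covariate, 5 with the replicate block and 1 to 4 when each library was left out, and those called lower 2 on log2(TPM + 1), 1 with fragment length and 1 to 4 by library left out. Negative ones called higher numbered 1 with fragment length and 2 to 3 by library left out, and those called lower 2 with weights, 0 on log2(TPM + 1), 0 with fragment length and 0 to 2 by library left out. Ligands called higher numbered 0 to 1 by library left out. Receptors called lower numbered 1 on log2(TPM + 1), 1 with fragment length, 1 with the replicate block and 1 to 2 by library left out. Inhibitors called higher numbered 0 with fragment length and 0 to 1 by library left out. The replicate block changed no other call of the genes and lists reported here. The count of member pairs passing the adjusted test was 0 in all 9 of its alternatives.

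Log2 fold changes that turned sign were those of Saa3 (-0.35 with fragment length, -0.13 to 0.27 by library left out), Orm2 (-0.47 to 0.59), Apcs (-0.17 to 0.58), Lrp2 (-0.74 to 0.11), Cd163 (-0.45 to 0.11), Tlr2 (-0.083 with voom, -0.33 with fragment length, -0.13 to 0.68) and Scarb1 (0.020 with library-size scaling, 0.063 with weights, 0.11 on log2(TPM + 1), 0.093 with the replicate block, -0.13 to 0.11). None of these genes was called in any analysis, and the cause was not tested. The Orm copies summed had a log2 fold change of -0.34. Most of that sum was Orm1, so it is not a value of Orm2 alone.

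Over all genes the calls numbered 615 higher and 659 lower, against 179 and 153 with fragment length as a covariate and 983 and 1118 with sample weights. Leaving out each library gave 330 to 742 higher and 250 to 900 lower. Depth limits what can be said of the cytokines, of which 1 of 8 passed the filter on low counts.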
